A study of Rattus norvegicus with 6 samples.

Results

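The PGC-1 coactivators and the genes of fatty acid oxidation were followed as a set of 10 genes in RSC96, an immortalised line of rat Schwann cells, out of 16849 genes in the deposited count table. The set holds the coactivators Ppargc1a and Ppargc1b, the nuclear receptors Ppara, Ppard and Esrra, the carnitine shuttle enzymes Cpt1a and Cpt2, and the beta-oxidation enzymes Acadvl, Acadm and Hadha. The set was chosen by the measured counts of Ppargc1a and Cpt1a, which lay above Control with both materials, so every difference of the 10 genes from Control is given as a description, without a p-value, and counts of calls in those contrasts are printed beside the share of all genes and support nothing. The difference between the materials was not used for that choice and is tested. All 10 genes were in the table and all 10 passed the filter on low counts. Bulk RNA was measured, in which fewer cells of a type and less RNA per cell cannot be told apart.

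There were 6 libraries in 3 groups of 2, all labelled wild type. The PVDF@PDA group had the piezoelectric material of that name together with hypoxia, and the PCL@PDA group had a material without piezoelectric effect together with hypoxia. Hypoxia was modelled by 24 h in medium conditioned by macrophages. The labels name the third group Control and do not say whether it received that medium, so the material, the medium and the hypoxia model cannot be told apart in a difference from Control. Each group had 1 library of batch 1 (replicate 1) and 1 of batch 3 (replicate 3). Nothing in the labels says that replicates came from separate cultures, so the p-values cover the spread between libraries alone, and that spread may be technical.

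PGC-1 alpha (Ppargc1a) and PGC-1 beta (Ppargc1b) are coactivators: they bind no DNA themselves and raise transcription through nuclear receptors such as the fatty acid sensors PPAR alpha and PPAR delta and the orphan receptor ERR alpha (Esrra). Among the genes they act on are those that carry long-chain fatty acids into mitochondria and oxidise them there. Cpt1a makes acylcarnitines at the outer mitochondrial membrane, which is the regulated entry step, and Cpt2 turns them back to acyl-CoA inside. Acadvl and Acadm start each oxidation cycle on very long and medium chains, and Hadha is the alpha subunit of the trifunctional protein that carries out later steps on long chains. In peripheral nerve, Schwann cell mitochondria and lipid oxidation have been linked to the health of the axons they ensheath.

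The start regions of Ppargc1a, Cpt1a and Acadm are shown, because these are the 3 genes of the set whose material libraries all lay above both Control libraries. Each runs from 250 bases before to 50 bases after the start site in RefSeq's promoter table for the assembly GRCr8, 5′ to 3′ along the gene. Capitals mark the cAMP response element TGACGTCA, a palindrome bound by CREB family factors.
Ppargc1a, chr14:63634058-63634357, plus strand: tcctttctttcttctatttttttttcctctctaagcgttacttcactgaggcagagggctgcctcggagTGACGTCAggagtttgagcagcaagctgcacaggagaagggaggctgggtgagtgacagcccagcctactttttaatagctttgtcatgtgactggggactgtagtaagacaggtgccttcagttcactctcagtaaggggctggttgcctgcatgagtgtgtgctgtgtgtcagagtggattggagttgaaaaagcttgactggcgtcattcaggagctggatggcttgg
Cpt1a, chr1:209995910-209996209, plus strand: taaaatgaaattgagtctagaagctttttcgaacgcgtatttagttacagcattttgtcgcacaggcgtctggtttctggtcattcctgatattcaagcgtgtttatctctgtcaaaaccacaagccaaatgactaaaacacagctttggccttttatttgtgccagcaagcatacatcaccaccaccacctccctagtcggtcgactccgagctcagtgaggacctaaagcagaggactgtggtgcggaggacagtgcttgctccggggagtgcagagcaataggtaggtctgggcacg
Acadm, chr2:245542815-245543114, minus strand: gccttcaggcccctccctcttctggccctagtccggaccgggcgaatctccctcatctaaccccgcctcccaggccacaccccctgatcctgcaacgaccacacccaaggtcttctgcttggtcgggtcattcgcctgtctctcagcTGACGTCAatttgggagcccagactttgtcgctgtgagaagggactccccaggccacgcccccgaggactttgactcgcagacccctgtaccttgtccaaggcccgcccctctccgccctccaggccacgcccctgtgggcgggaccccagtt
The element started 181 bases before the start site of Ppargc1a and 103 bases before that of Acadm, and Cpt1a had none in this window. RefSeq gave a window for 9 of the 10 genes, all but Ppard, and 2 of the 9 held the element, against 1.83% of all 33469 windows of this length. All motifs were searched on both strands. The half-site TGACG, which the full element contains, was found in the same 2 genes and in 21.2% of all windows. The nuclear receptor half-site AGGTCA was found in Acadvl alone among the 9, and in 16.2% of all windows. The ERR element TCAAGGTCA, which contains that half-site, was in none of the 9 and in 0.433% of all windows. The hypoxia core ACGTG was in none of the 9 and in 19.3% of all windows. These are matches of letters, not measured binding sites.

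Between 32760123 and 35389307 reads were counted per library. PCL@PDA replicate 3 stood apart on the second principal component, at -28.5 against 6.09 for PCL@PDA replicate 1, so the main PCL@PDA values are also given without it. The Control libraries stood at 13.7 and -13.6 on the same component, and many of the calls reported for the pathway lists were lost without 1 of them. Of 16 Schwann markers 11 had enough reads to be tested. The adhesion gene Ncam1, the receptor gene Erbb3 and the myelin gene Pmp22 had 349 or more reads in every library, whereas the Schwann lineage markers Mag, Ngfr, Cdh19 and Pou3f1 had 0 to 4. The summed level of the Schwann list was 1326 to 1426 CPM (counts scaled to the TMM-adjusted library size) with the materials and 1442 and 1500 in Control. Most of that sum was Vim, at 1094 and 1054 CPM in PVDF@PDA, 1148 and 1173 in PCL@PDA and 1200 and 1248 in Control, and other markers moved in opposite directions. Erbb3 fell with PVDF@PDA (log2 -0.72, SE 0.14, edgeR adjusted p = 0.000131) and PCL@PDA (log2 -0.61, SE 0.14, edgeR adjusted p = 0.000849). Ncam1 rose with PVDF@PDA (log2 0.37, SE 0.06, edgeR adjusted p = 8.10e-06) and PCL@PDA (log2 0.25, SE 0.06, edgeR adjusted p = 0.00201), as did Pmp22 (log2 0.28, SE 0.08, edgeR adjusted p = 0.0127, and log2 0.27, SE 0.08, edgeR adjusted p = 0.0156). Of 12 macrophage markers 8 were in the table, and they summed to 5.75 to 7.21 CPM with the materials and 6.66 and 7.06 in Control. Cd14 made up most of it, at 4.95 and 5.05 CPM in PVDF@PDA, 4.51 and 4.79 in PCL@PDA and 5.91 and 6.11 in Control. Cd68 had 23 and 31 reads with PVDF@PDA, 30 and 3 with PCL@PDA and 0 and 10 in Control. Neither of its differences from Control passed (log2 2.43 and 1.69, edgeR adjusted p = 0.0688 and 0.235). The leukocyte antigen Ptprc had 0 to 1 read. Fibroblast markers summed to 204 to 220 CPM with the materials and 181 and 189 in Control, mostly Thy1, at 156 and 162, 161 and 170 and 147 and 158 CPM. The fibroblast marker Pdgfra was 1.57-fold that of Control with PVDF@PDA and 1.48-fold with PCL@PDA (edgeR adjusted p = 9.86e-06 and 7.37e-05), and the collagen gene Col1a1 1.60-fold and 1.63-fold (adjusted p = 4.01e-05 and 1.77e-05), whereas Dcn had 0 to 1 read per library. The part of these marker shifts in the differences from Control was not tested. The adipocyte gene Adipoq had 0 to 1 read per library and the muscle gene Ckm 0 to 3. Others of these lists had more, with 8 to 30 reads per library for the muscle gene Tnnt2. The adipocyte gene Plin1 had 21 and 18 reads with PVDF@PDA, 1 and 3 with PCL@PDA and 2 and 5 in Control.

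**Figure D1:**
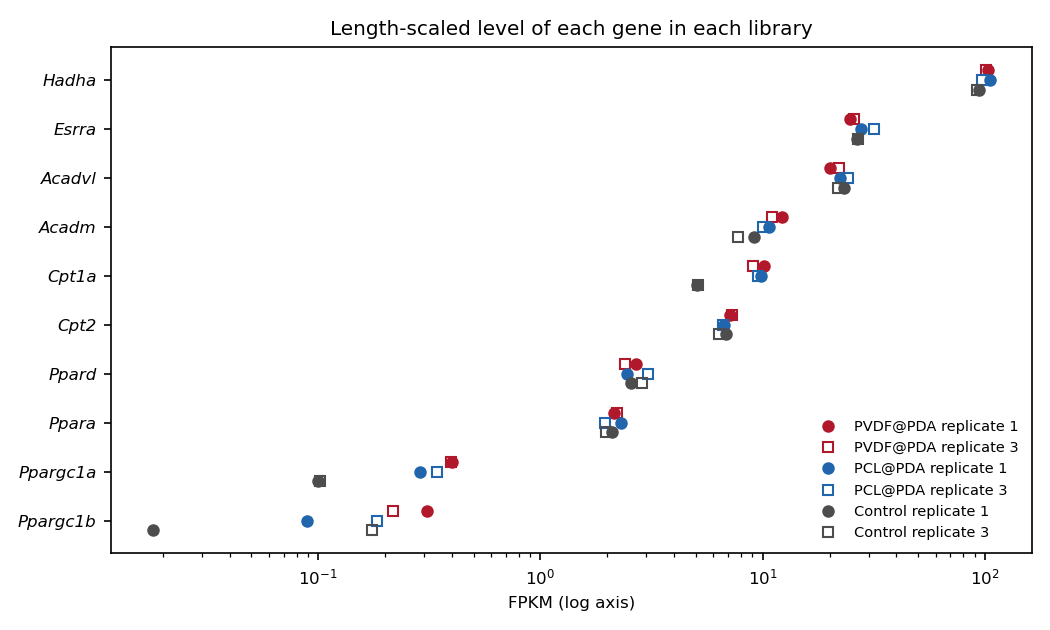
Length-scaled level (FPKM, log axis) of each of the 10 genes in each of the 6 libraries; colours give the group and marker shapes the replicate. Hadha lies at the top at 92.5 to 106 FPKM, and both coactivators lie lowest, at no more than 0.400 FPKM.

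The 10 genes spanned a wide range of levels, from the abundant enzyme Hadha to coactivators with few reads. On the FPKM scale, which divides by gene length, the mean level over all 6 libraries was 99.2 for Hadha, 27.2 for Esrra and 22.3 for Acadvl. It was 10.1 for Acadm, 8.15 for Cpt1a, 6.85 for Cpt2, 2.67 for Ppard and 2.12 for Ppara. The coactivators followed with 0.271 for Ppargc1a and 0.165 for Ppargc1b. Hadha lay above 94.2% of the tested genes and Ppargc1a above 9.18% of them. Among neighbours in this order, the ranges over libraries of Acadm (7.73 to 12.2) and Cpt1a (5.07 to 10.2) overlapped, as did those of Cpt1a and Cpt2 (6.37 to 7.29). Ppargc1a (0.100 to 0.400) and Ppargc1b (0.0181 to 0.310) overlapped too. The range of Esrra (24.7 to 31.6) lay above that of Acadvl (20.2 to 24.2), and that of Ppard (2.41 to 3.05) above that of Ppara (1.96 to 2.31). Among the receptors, the ERR alpha transcript was thus the most abundant in all 6 libraries.

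**Figure D2:**
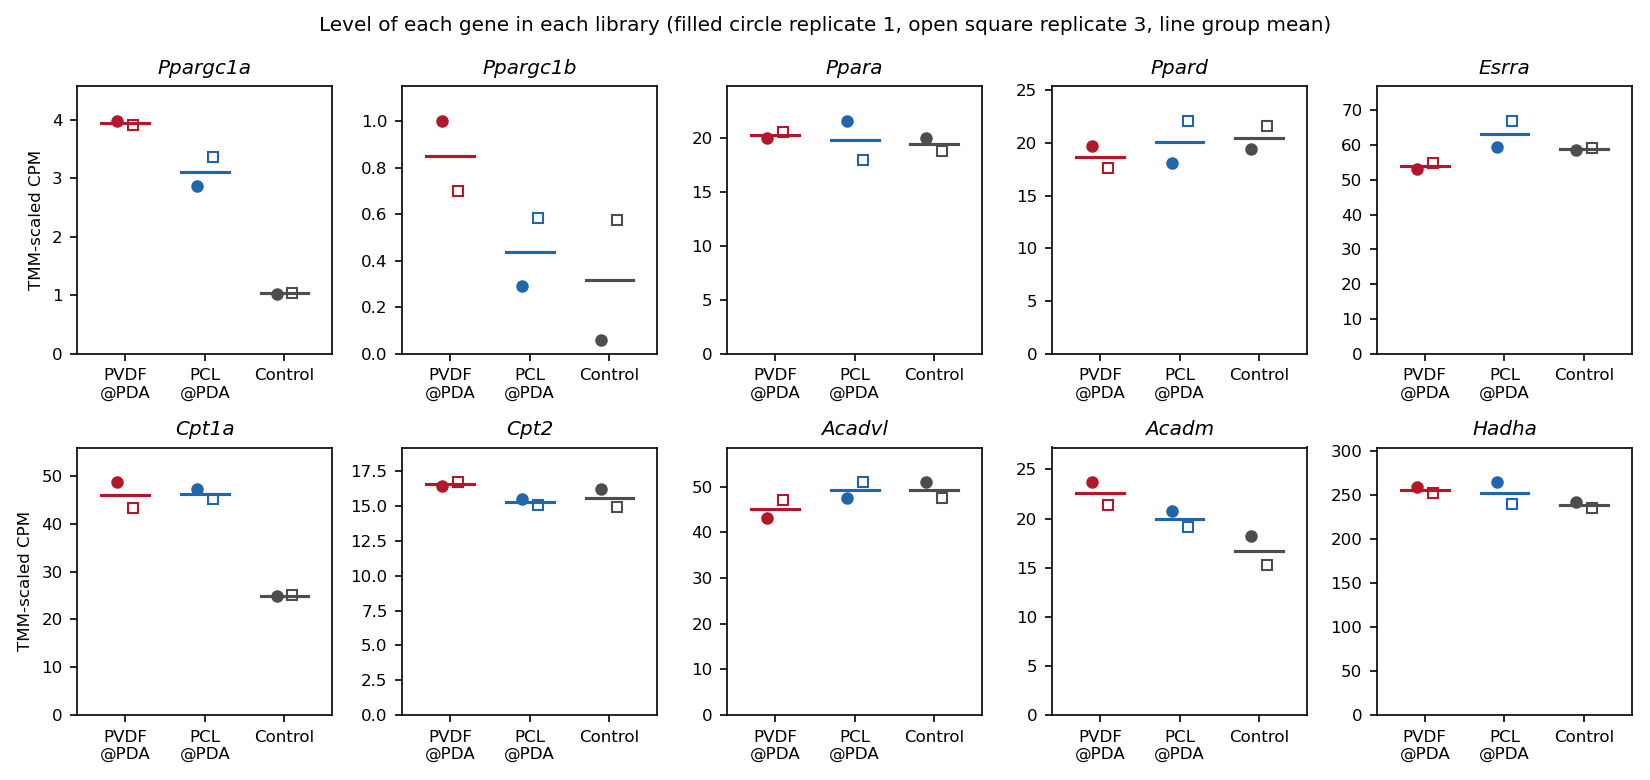
TMM-scaled CPM of each gene in each library, with the group mean as a line; filled circles are replicate 1 and open squares replicate 3. Ppargc1a and Cpt1a lie lowest in both Control libraries, with Cpt1a at 25.0 and 25.0 CPM there and between 43.4 and 48.7 with the materials.

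Ppargc1a was low in all libraries and lowest in Control. Replicates 1 and 3 had 131 and 134 reads with PVDF@PDA, 99 and 115 with PCL@PDA, and 34 and 36 in Control. In CPM this was 3.98 and 3.91, 2.86 and 3.36, and 1.02 and 1.03. All 4 material libraries lay above both Control libraries, and both PVDF@PDA libraries lay above both PCL@PDA libraries. The level was 3.83-fold that of Control with PVDF@PDA (log2 1.94, SE 0.32) and 3.02-fold with PCL@PDA (log2 1.60, SE 0.32). Within batches 1 and 3 the log2 differences from Control were 1.96 and 1.92 with PVDF@PDA and 1.49 and 1.70 with PCL@PDA. Without PCL@PDA replicate 3 the PCL@PDA value was 1.47. The material groups differed by log2 0.34 (95% interval -0.23 to 0.92, SE 0.29, n = 2 libraries each, adjusted p = 0.763 in edgeR's quasi-likelihood test), with PVDF@PDA higher in both batches (0.47 and 0.22). The interval includes 0.

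Ppargc1b was at the edge of detection. It had 33 and 24 reads with PVDF@PDA, 10 and 20 with PCL@PDA and 2 and 20 in Control. In CPM this was 1.00 and 0.701, 0.289 and 0.584, and 0.0600 and 0.574. Control replicate 1 was under the level of 3 reads. Both PVDF@PDA libraries were above the other 4, and the PCL@PDA and Control libraries overlapped. The summed reads, scaled for depth, gave a ratio of 2.63 (1.58 to 4.52) for PVDF@PDA over Control and 1.95 (1.23 to 3.14) for PVDF@PDA over PCL@PDA, with 95% intervals that cover counting error only. Within batches 1 and 3 the log2 differences from Control were 4.06 and 0.29 with PVDF@PDA and 2.27 and 0.02 with PCL@PDA. With the spread between libraries, the difference between the materials was log2 0.96 (95% interval -0.50 to 2.41, edgeR adjusted p = 0.731), an interval that includes 0.

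The PPAR receptor genes lay close to Control. Ppara stood at 20.0 and 20.6 CPM in PVDF@PDA, 21.6 and 18.0 with PCL@PDA and 20.0 and 18.8 in Control. Its log2 difference from Control was 0.06 (SE 0.12) with PVDF@PDA and 0.03 (SE 0.12) with PCL@PDA. Ppard stood at 19.7 and 17.7 CPM in PVDF@PDA, 18.1 and 22.1 with PCL@PDA and 19.4 and 21.6 in Control, with log2 differences of -0.13 and -0.03 (SE 0.12 each). The PCL@PDA libraries of both genes overlapped Control, and the PVDF@PDA libraries of Ppara lay above it by little. Between the materials Ppara differed by log2 0.04 (95% interval -0.20 to 0.28, edgeR adjusted p = 0.954) and Ppard by -0.10 (-0.35 to 0.14, adjusted p = 0.848). Without PCL@PDA replicate 3 these differences were -0.09 and 0.05, with turned signs. The span of the counted gene Cdpf1 overlaps that of Ppara in the GRCr8 annotation. Exons were not compared, so whether reads of the pair could be mixed without the counting strand is not known.

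Esrra, which encodes ERR alpha, lay on opposite sides of Control in the material groups. It stood at 53.1 and 55.0 CPM in PVDF@PDA, 59.5 and 67.0 with PCL@PDA, and 58.7 and 59.0 in Control. Both PVDF@PDA libraries lay below Control and both PCL@PDA libraries above it, replicate 1 by little. The log2 difference from Control was -0.12 (SE 0.08) with PVDF@PDA and 0.10 (SE 0.08) with PCL@PDA. Between the materials it was -0.23 (95% interval -0.38 to -0.07, SE 0.08, n = 2 libraries each), which did not pass over all genes tested (edgeR unadjusted p = 0.00464, adjusted p = 0.401). Within batches 1 and 3 it was -0.17 and -0.28. The size and the call depended on the PCL@PDA libraries. Leaving out PCL@PDA replicate 1 gave -0.31, which passed, but with 1 library left in that group. Leaving out PCL@PDA replicate 3 gave -0.14. The span of Trmt112 overlaps that of Esrra in the GRCr8 annotation, and exons of this pair were not compared either. Trmt112 stood at 27.0 and 27.2 CPM in the PVDF@PDA libraries and 28.9 and 29.2 in the PCL@PDA libraries, a log2 difference of -0.10 (SE 0.10).

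Cpt1a, which controls the entry of long-chain fatty acids into mitochondria, was higher with both materials, while its partner Cpt2 lay near Control. Cpt1a stood at 48.7 and 43.4 CPM in PVDF@PDA, 47.4 and 45.3 with PCL@PDA, and 25.0 and 25.0 in Control. The 4 material libraries lay above both Control libraries, and the material groups overlapped. The level was 1.84-fold that of Control with PVDF@PDA (log2 0.88, SE 0.09) and 1.85-fold with PCL@PDA (log2 0.89, SE 0.09). Within batches 1 and 3 the log2 differences were 0.96 and 0.80 with PVDF@PDA and 0.93 and 0.85 with PCL@PDA. Without PCL@PDA replicate 3 the PCL@PDA value was 0.92. Between the materials Cpt1a differed by log2 -0.01 (95% interval -0.18 to 0.17, edgeR adjusted p = 0.988).

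Cpt2 stood at 16.5 and 16.7 CPM in PVDF@PDA, 15.5 and 15.1 with PCL@PDA, and 16.2 and 15.0 in Control. Its log2 difference from Control was 0.09 with PVDF@PDA and -0.03 with PCL@PDA (SE 0.13 each), and between the materials 0.12 (95% interval -0.14 to 0.37, edgeR adjusted p = 0.831). The PCL@PDA and Control libraries overlapped. On the FPKM scale the ratio of Cpt1a to Cpt2 was 1.42 and 1.25 with PVDF@PDA, 1.47 and 1.44 with PCL@PDA, and 0.738 and 0.803 in Control. The Cpt1a transcript was thus the more abundant of the pair in all 4 material libraries and the less abundant in both Control libraries.

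Of the enzymes of the oxidation cycle, Acadm was higher with the materials, and the long-chain enzymes were near Control. Acadm stood at 23.7 and 21.4 CPM in PVDF@PDA, 20.7 and 19.2 with PCL@PDA, and 18.2 and 15.3 in Control. The groups did not overlap, with PVDF@PDA highest and Control lowest. The log2 difference from Control was 0.43 with PVDF@PDA (1.35-fold) and 0.25 with PCL@PDA (1.19-fold), each with an SE of 0.12. Within batches 1 and 3 these differences were 0.38 and 0.48, and 0.19 and 0.32. The PVDF@PDA value was among the calls with all 6 libraries, but not without PVDF@PDA replicate 1 (log2 0.35) or Control replicate 3 (log2 0.31). Between the materials the difference was 0.18 (95% interval -0.06 to 0.41, edgeR adjusted p = 0.694).

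Acadvl stood at 43.1 and 47.1 CPM in PVDF@PDA, 47.5 and 50.9 with PCL@PDA, and 50.9 and 47.6 in Control. Hadha stood at 259 and 253 CPM in PVDF@PDA, 265 and 240 with PCL@PDA, and 242 and 236 in Control. The PVDF@PDA libraries lay below Control for Acadvl and above it for Hadha, and the PCL@PDA libraries overlapped Control for both genes. The log2 difference of Acadvl from Control was -0.13 with PVDF@PDA and -0.0020 with PCL@PDA (SE 0.08 each). That of Hadha was 0.10 and 0.08 (SE 0.06 each). Between the materials Acadvl differed by -0.13 (95% interval -0.29 to 0.04, edgeR adjusted p = 0.686) and Hadha by 0.02 (-0.09 to 0.13, adjusted p = 0.940). Hadha, with the most reads, had the narrowest interval of the 10 genes.

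**Figure D3:**
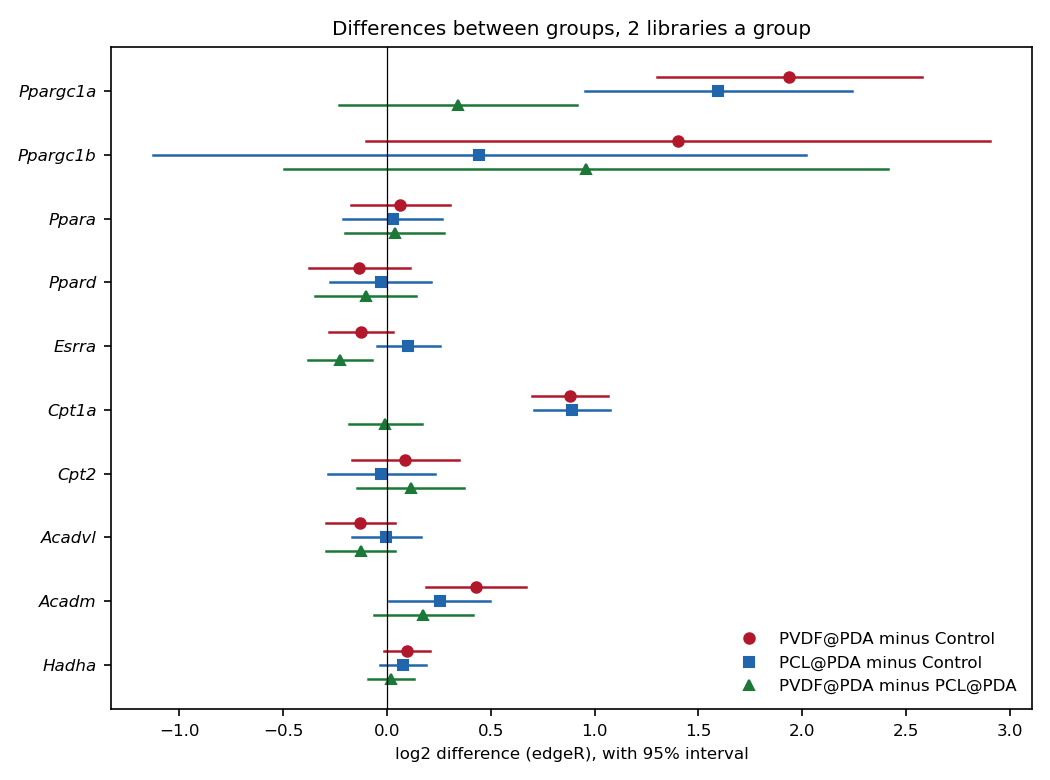
Log2 difference between groups for each gene, with its 95% interval from the edgeR fit (2 libraries a group), drawn for the materials against Control and for PVDF@PDA against PCL@PDA. The intervals of Ppargc1a, Cpt1a and Acadm against Control lie to the right of 0 in both materials, that of Acadm with PCL@PDA barely (from 0.01). Of the differences between the materials only that of Esrra has an interval that leaves out 0.

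Counted over the set, 3 of 10 genes were among the edgeR calls against Control with PVDF@PDA, namely Ppargc1a, Cpt1a and Acadm. All 3 were higher, where 15.7% of all 13018 genes tested were called, 6.79% higher and 8.9% lower. With PCL@PDA, Ppargc1a and Cpt1a were among the calls, 2 of 10, both higher, where 20.1% were called, 8.77% higher and 11.3% lower. The PVDF@PDA libraries lay above Control for 7 genes and below for 2, where 58.5% of all genes did not overlap, 29.4% above and 29.2% below. The PCL@PDA libraries lay above for 4 and below for 0, where 56.2% did not overlap, 28.3% above and 27.8% below. The choice of the set used these contrasts, and nothing is read from these counts. The median log2 difference of the set was 0.09 in each, against 0.01 over all genes tested. The contrasts share the Control libraries and are not independent.

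Between the materials edgeR called 0 of the 10 genes, where 0.0615% of all genes were called, 0.0538% higher and 0.00768% lower, and DESeq2 also called 0. Esrra, 1 of 10, had an unadjusted edgeR p below 0.05, as had 8.49% of all genes. The material groups did not overlap for 6 of 10 genes, where 38% of all genes did not. Ppargc1a, Ppargc1b, Cpt2 and Acadm lay above with PVDF@PDA, 4 of 10, against 19.2% of all genes, and Esrra and Acadvl below, 2 of 10, against 18.9%. The median log2 difference of the 10 genes was 0.03, against 0.0045 over all genes tested.

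The other genes of the pathway were followed in 5 lists, of which 125 of 134 genes in the table could be tested. Over all genes, edgeR's calls were 884 higher and 1158 lower with PVDF@PDA and 1142 and 1474 with PCL@PDA, and scaling by library totals turned these to 1164 and 879, and 1482 and 1070. In mitochondrial beta-oxidation, the thiolase Acaa2, which releases acetyl-CoA, rose with both materials and the acyl-CoA synthetase Acsl5, which activates fatty acids, fell. Acaa2 stood at 14.8 and 18.0 CPM with PVDF@PDA (log2 0.87, SE 0.15, edgeR adjusted p = 1.23e-05), 13.3 and 15.8 with PCL@PDA (log2 0.70, SE 0.15, edgeR adjusted p = 0.000336) and 8.31 and 9.64 in Control. Acsl5 stood at 110 and 104 CPM with PVDF@PDA (log2 -0.51, SE 0.06, edgeR adjusted p = 1.17e-08), 113 and 102 with PCL@PDA (log2 -0.50, SE 0.06, edgeR adjusted p = 1.23e-08) and 152 and 151 in Control. For both genes the material libraries lay apart from Control. Acacb makes malonyl-CoA, which inhibits Cpt1a, and was called higher, from 0.540 and 1.06 CPM in Control to 2.49 and 2.04 with PVDF@PDA (log2 1.49, SE 0.42, edgeR adjusted p = 0.00996) and 2.29 and 1.43 with PCL@PDA (log2 1.21, SE 0.43, edgeR adjusted p = 0.0365). Its first call was lost without PVDF@PDA replicate 1 or Control replicate 1 (log2 1.09 to 1.34, edgeR adjusted p = 0.0868 to 0.152). The second was lost without PCL@PDA replicate 1 or Control replicate 1 (log2 0.80 to 0.83, edgeR adjusted p = 0.275 to 0.321), in DESeq2 (adjusted p = 0.0699) and with only the 4 libraries of that contrast (adjusted p = 0.0599).

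Of 27 tested genes of this list, 2 were called higher and 1 lower with PVDF@PDA, and 3 higher and 4 lower with PCL@PDA, where 15.7% and 20.1% of all genes were called. With library totals the PCL@PDA calls were 3 higher and 2 lower. The list medians were 0.04 and 0.02. The further calls were made with PCL@PDA and were small. The acyl-CoA dehydrogenase gene Acad11 was higher (log2 0.35, SE 0.12, edgeR adjusted p = 0.0336), a call lost without PCL@PDA replicate 3, Control replicate 1 or Control replicate 3 (log2 0.24 to 0.36, edgeR adjusted p = 0.128 to 0.284) and in DESeq2 (adjusted p = 0.0612). The acyl-CoA synthetase gene Acsl4 was lower (log2 -0.21, SE 0.05, edgeR adjusted p = 0.00184), a call lost without Control replicate 1 (log2 -0.19, edgeR adjusted p = 0.0577). The hydratase gene Echs1 was lower (log2 -0.38, SE 0.13, edgeR adjusted p = 0.0276), a call lost without PCL@PDA replicate 3, Control replicate 1 or Control replicate 3 (log2 -0.43 to -0.34, edgeR adjusted p = 0.0750 to 0.182) and with scaling by library totals (adjusted p = 0.0588). Hadhb, the partner subunit of Hadha, was lower (log2 -0.13, SE 0.05, edgeR adjusted p = 0.0486), a call lost without PVDF@PDA replicate 1, PVDF@PDA replicate 3, Control replicate 1 or Control replicate 3 (log2 -0.14 to -0.12, edgeR adjusted p = 0.101 to 0.250), with scaling by library totals (adjusted p = 0.159) and with only the 4 libraries of that contrast (adjusted p = 0.104).

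PPAR target and lipid droplet genes had list medians of 0.23 with PVDF@PDA and 0.35 with PCL@PDA, over 15 tested genes. With PVDF@PDA 3 were called higher and 1 lower, and with PCL@PDA 4 and 1, where 15.7% and 20.1% of all genes were called. With library totals these became 3 and 0, and 5 and 1. Plin2, which coats lipid droplets, stood at 508 and 519 CPM with PVDF@PDA (log2 0.48, SE 0.05, edgeR adjusted p = 1.54e-10), 511 and 501 with PCL@PDA (log2 0.46, SE 0.05, edgeR adjusted p = 3.97e-10) and 364 and 370 in Control. Angptl4, a secreted inhibitor of lipoprotein lipase, stood at 74.2 and 78.6 CPM with PVDF@PDA (log2 0.56, SE 0.08, edgeR adjusted p = 1.41e-07), 75.6 and 79.4 with PCL@PDA (log2 0.58, SE 0.08, edgeR adjusted p = 4.11e-08) and 47.8 and 56.0 in Control. Both are known to respond to hypoxia as well as to PPARs. Their material libraries lay above Control, and both genes passed in every alternative.

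Lipe, the hormone-sensitive lipase, stood at 15.0 and 15.0 CPM with PVDF@PDA (log2 0.60, SE 0.14, edgeR adjusted p = 0.00184), 16.0 and 17.0 with PCL@PDA (log2 0.74, SE 0.14, edgeR adjusted p = 9.39e-05) and 11.2 and 8.64 in Control. Its PVDF@PDA call was lost without Control replicate 3 (log2 0.42, edgeR adjusted p = 0.122). The triglyceride lipase Pnpla2 was called higher with PCL@PDA (log2 0.35, SE 0.11, edgeR adjusted p = 0.0126), a call lost without PCL@PDA replicate 3 or Control replicate 1 (log2 0.23 to 0.27, edgeR adjusted p = 0.113 to 0.308). With PVDF@PDA its log2 difference was 0.23 (edgeR adjusted p = 0.143). Txnip, which restrains glucose uptake, was called lower with PVDF@PDA (log2 -0.14, SE 0.05, edgeR adjusted p = 0.0390) and PCL@PDA (log2 -0.18, SE 0.05, edgeR adjusted p = 0.00624). Its first call was lost without PVDF@PDA replicate 1, PVDF@PDA replicate 3, Control replicate 1 or Control replicate 3 (log2 -0.17 to -0.12, edgeR adjusted p = 0.132 to 0.316) and with scaling by library totals (adjusted p = 0.101), and its second without Control replicate 3 (log2 -0.16, edgeR adjusted p = 0.0911).

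Peroxisomal oxidation had the fewest calls of the 5 lists, with 1 of 18 tested genes called with PVDF@PDA and 0 with PCL@PDA in edgeR, where 15.7% and 20.1% of all genes were called. Abcd3, a transporter of the peroxisomal membrane, stood at 89.7 and 95.0 CPM with PVDF@PDA (log2 0.23, SE 0.07, edgeR adjusted p = 0.0141), 90.4 and 81.1 with PCL@PDA and 77.0 and 80.6 in Control. Its call was lost without PVDF@PDA replicate 3 or Control replicate 1 (log2 0.18 to 0.20, edgeR adjusted p = 0.173 to 0.224). An unadjusted edgeR p below 0.05 was reached by 1 of 18 genes in the PVDF@PDA contrast and by 2 of 18 in the PCL@PDA contrast, where 28.2% and 31% of all genes had one, and DESeq2 called 0 with PCL@PDA. The list medians were 0.05 and 0.07.

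Among 36 tested partners and regulators of the coactivators, 2 were called higher and 2 lower with PVDF@PDA, and 4 higher and 6 lower with PCL@PDA, where 15.7% and 20.1% of all genes were called. With library totals these became 2 and 1, and 5 and 4. The kinase genes Prkaa1 and Mapk14, whose products act on PGC-1 alpha, rose with both materials. Prkaa1, a catalytic subunit of the energy sensor AMPK, stood at 140 and 134 CPM with PVDF@PDA (log2 0.31, SE 0.06, edgeR adjusted p = 0.000141), 132 and 128 with PCL@PDA (log2 0.23, SE 0.06, edgeR adjusted p = 0.00349) and 113 and 108 in Control. Mapk14, a stress kinase, stood at 83.4 and 85.7 CPM with PVDF@PDA (log2 0.31, SE 0.07, edgeR adjusted p = 0.000795), 85.2 and 90.0 with PCL@PDA (log2 0.36, SE 0.07, edgeR adjusted p = 7.65e-05) and 71.1 and 65.4 in Control. For both kinases the material libraries lay above Control. The PCL@PDA call of Prkaa1 was lost without Control replicate 3 (log2 0.20, edgeR adjusted p = 0.0868), and the PVDF@PDA call of Mapk14 without Control replicate 3 (log2 0.25, edgeR adjusted p = 0.0667).

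Pparg, the PPAR gene of fat cells, was called lower, from 17.5 and 20.1 CPM in Control to 14.0 and 14.9 with PVDF@PDA (log2 -0.38, SE 0.13, edgeR adjusted p = 0.0364) and 14.4 and 13.8 with PCL@PDA (log2 -0.41, SE 0.13, edgeR adjusted p = 0.0168). Its first call was lost without PVDF@PDA replicate 1, PVDF@PDA replicate 3 or Control replicate 3 (log2 -0.43 to -0.28, edgeR adjusted p = 0.110 to 0.340), in DESeq2 (adjusted p = 0.0678) and with scaling by library totals (adjusted p = 0.0677). Its second was lost without PCL@PDA replicate 3 or Control replicate 3 (log2 -0.39 to -0.31, edgeR adjusted p = 0.0704 to 0.232). The corepressor gene Ncor1 was called lower with PVDF@PDA (log2 -0.19, SE 0.06, edgeR adjusted p = 0.0138) and PCL@PDA (log2 -0.21, SE 0.06, edgeR adjusted p = 0.00436). Its first call was lost without PVDF@PDA replicate 1, PVDF@PDA replicate 3, Control replicate 1 or Control replicate 3 (log2 -0.20 to -0.18, edgeR adjusted p = 0.0665 to 0.123), and its second without Control replicate 1 (log2 -0.20, edgeR adjusted p = 0.0649).

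With PCL@PDA, the transcription factor gene Mef2a fell to 333 and 304 CPM against 375 and 378 in Control (log2 -0.24, SE 0.05, edgeR adjusted p = 0.000530), a call kept in every alternative. The deacetylase gene Sirt1, whose product acts on PGC-1 alpha, was called lower at 136 and 127 CPM against 157 and 147 (log2 -0.21, SE 0.06, edgeR adjusted p = 0.00859), a call lost without PCL@PDA replicate 3 or Control replicate 1 (log2 -0.17 to -0.16, edgeR adjusted p = 0.0502 to 0.207). The CREB coactivator gene Crtc2 was called higher (log2 0.28, SE 0.10, edgeR adjusted p = 0.0403), a call lost without PCL@PDA replicate 3, Control replicate 1 or Control replicate 3 (log2 0.14 to 0.33, edgeR adjusted p = 0.0741 to 0.490) and in DESeq2 (adjusted p = 0.0881). The transcription factor gene Mef2d was called higher (log2 0.20, SE 0.07, edgeR adjusted p = 0.0269), a call lost without PCL@PDA replicate 3, Control replicate 1 or Control replicate 3 (log2 0.11 to 0.24, edgeR adjusted p = 0.0655 to 0.361) and in DESeq2 (adjusted p = 0.0591). With PVDF@PDA the log2 differences of these 4 genes were -0.10 for Mef2a, -0.11 for Sirt1, 0.16 for Crtc2 and 0.07 for Mef2d, and none passed. The materials are not shown to differ in these genes, since none passed between them. The list medians were -0.01 with PVDF@PDA and -0.02 with PCL@PDA.

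In the list of the TCA cycle and pyruvate entry, which takes up the acetyl-CoA from fatty acid oxidation, 29 genes were tested. With PVDF@PDA 2 were called higher and 6 lower, and with PCL@PDA 2 higher and 5 lower, where 15.7% and 20.1% of all genes were called. With library totals these became 4 and 3, and 5 and 5, so the excess of lower calls did not hold under that scaling. The list had medians of -0.10 and 0.0014. Pdhb, a subunit of the pyruvate dehydrogenase that supplies acetyl-CoA from glucose, stood at 66.8 and 56.1 CPM with PVDF@PDA (log2 -0.31, SE 0.08, edgeR adjusted p = 0.00310), 62.9 and 58.6 with PCL@PDA (log2 -0.33, SE 0.08, edgeR adjusted p = 0.00139) and 78.7 and 73.5 in Control. Its PVDF@PDA call was lost without PVDF@PDA replicate 3 or Control replicate 1 (log2 -0.26 to -0.19, edgeR adjusted p = 0.0759 to 0.249). Pdp2, a phosphatase that activates the same enzyme, stood at 40.2 and 33.1 CPM with PVDF@PDA (log2 0.39, SE 0.10, edgeR adjusted p = 0.00388), 38.5 and 38.1 with PCL@PDA (log2 0.46, SE 0.10, edgeR adjusted p = 0.000548) and 30.2 and 25.6 in Control. Its PVDF@PDA call was lost without PVDF@PDA replicate 1 or Control replicate 3 (log2 0.24 to 0.27, edgeR adjusted p = 0.160 to 0.240). Both genes kept their PCL@PDA calls in every alternative.

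The succinyl-CoA ligase subunit Sucla2 was called lower with PVDF@PDA (log2 -0.21, SE 0.06, edgeR adjusted p = 0.00959) and PCL@PDA (log2 -0.23, SE 0.06, edgeR adjusted p = 0.00415). Its first call was lost without PVDF@PDA replicate 3, Control replicate 1 or Control replicate 3 (log2 -0.23 to -0.19, edgeR adjusted p = 0.0670 to 0.152), and its second without Control replicate 3 (log2 -0.22, edgeR adjusted p = 0.0506). With PVDF@PDA the succinate dehydrogenase subunit Sdhb was called lower (log2 -0.27, SE 0.07, edgeR adjusted p = 0.00715), a call lost without PVDF@PDA replicate 1, PVDF@PDA replicate 3 or Control replicate 3 (log2 -0.28 to -0.23, edgeR adjusted p = 0.0581 to 0.123). Citrate synthase, Cs, was called lower (log2 -0.19, SE 0.06, edgeR adjusted p = 0.0207), a call lost without PVDF@PDA replicate 1, PVDF@PDA replicate 3, Control replicate 1 or Control replicate 3 (log2 -0.20 to -0.18, edgeR adjusted p = 0.105 to 0.184) and with scaling by library totals (adjusted p = 0.0607). The pyruvate carrier subunit Mpc2 was called higher (log2 0.29, SE 0.09, edgeR adjusted p = 0.0145), a call lost without PVDF@PDA replicate 1, PVDF@PDA replicate 3, Control replicate 1 or Control replicate 3 (log2 0.24 to 0.33, edgeR adjusted p = 0.0507 to 0.184).

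With PCL@PDA, pyruvate carboxylase, Pc, rose from 50.3 and 48.3 CPM in Control to 58.6 and 66.6 (log2 0.34, SE 0.08, edgeR adjusted p = 0.00104), and stood at 50.2 and 53.9 CPM with PVDF@PDA. Its call was kept in every alternative. The dihydrolipoamide dehydrogenase gene Dld was called lower (log2 -0.22, SE 0.06, edgeR adjusted p = 0.00361), a call lost without PCL@PDA replicate 3 (log2 -0.12, edgeR adjusted p = 0.118). Suclg2, another succinyl-CoA ligase subunit, was called lower (log2 -0.23, SE 0.06, edgeR adjusted p = 0.00461), a call lost without Control replicate 3 (log2 -0.19, edgeR adjusted p = 0.108). It was called lower with PVDF@PDA too (log2 -0.20, SE 0.06, edgeR adjusted p = 0.0209), a call that was not followed through the alternatives.

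**Figure D4:**
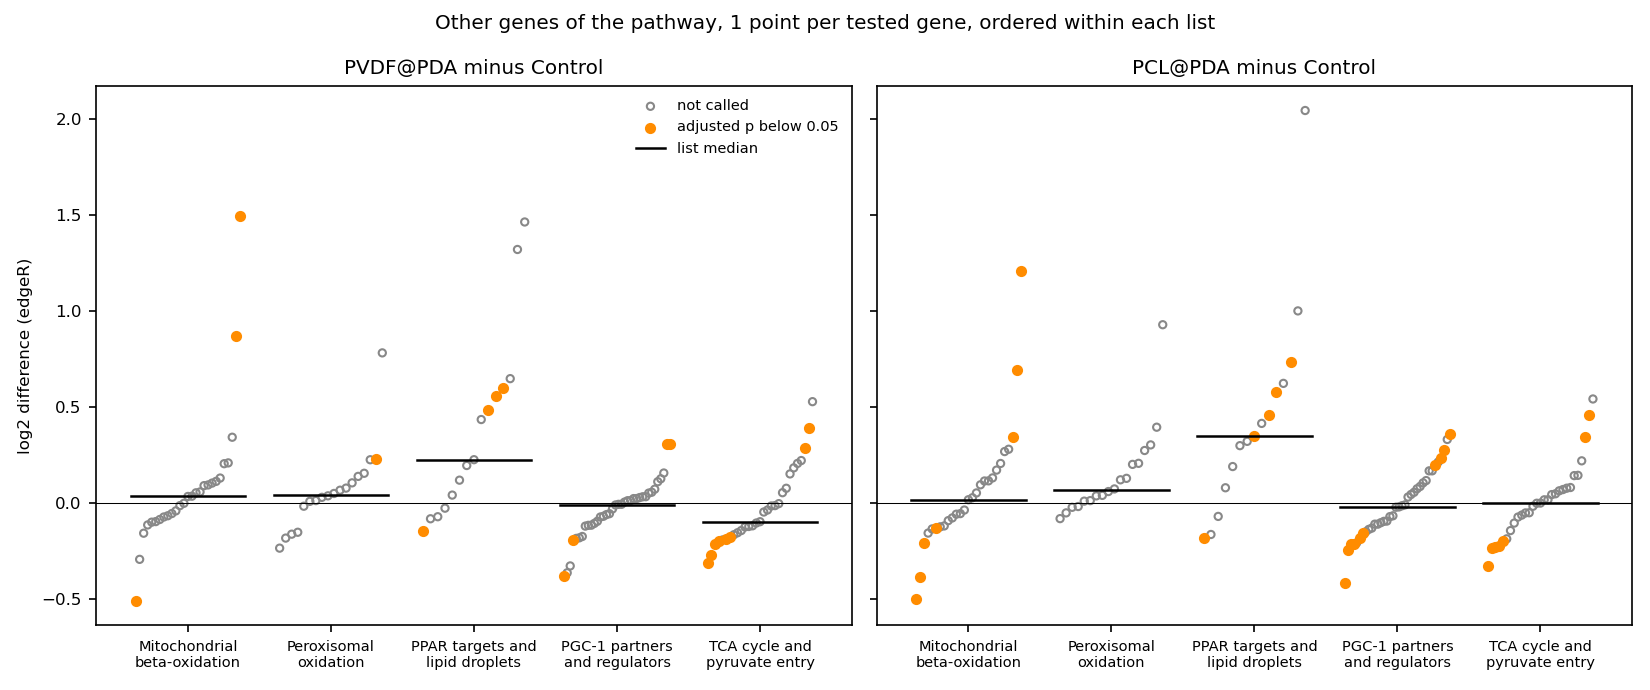
Log2 difference from Control for every tested gene of the 5 lists, with PVDF@PDA and PCL@PDA in separate panels; filled points passed an edgeR adjusted p below 0.05 and bars are list medians. The PPAR target list has the highest medians, at 0.23 and 0.35.

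Between the materials 0 genes of the 5 lists were called by edgeR, and 0 by DESeq2. At an unadjusted p below 0.05 there were 1 of 27 in beta-oxidation, 0 of 18 in peroxisomal oxidation, 0 of 15 in PPAR targets, 5 of 36 in partners and 7 of 29 in the TCA cycle list, where 8.49% of all genes had one. Among the genes with the smallest p of their list were Pc (log2 -0.27, SE 0.08, edgeR adjusted p = 0.343), the retinoid receptor gene Rxrb (log2 -0.37, SE 0.12, edgeR adjusted p = 0.401), Acsl4 (log2 0.12, SE 0.05, edgeR adjusted p = 0.490) and the uncoupling protein gene Ucp2 (log2 -0.15, SE 0.08, edgeR adjusted p = 0.594). Leaving out PCL@PDA replicate 1, so that its group was represented by PCL@PDA replicate 3, 827 genes were called in place of 8. Pc (log2 -0.36), Rxrb (log2 -0.58) and Acsl4 (log2 0.17) then passed, as did Esrra of the 10 genes (log2 -0.31). Of the list genes named, the span of Rxrb overlaps that of the counted gene Slc39a7 in the GRCr8 annotation. The same holds for Pc and Lrfn4, Acsl5 and Zdhhc6, Acad11 and Ackr4, Mpc2 and Adcy10, and Ncor1 and Pigl. Exons were not compared, so whether reads of these pairs could be mixed without strand is not known.

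The genes whose levels followed Ppargc1a most closely over the 6 libraries were Wif1, a secreted WNT inhibitor (r = 0.997), Rab11fip1, a recycling endosome adaptor (r = 0.996), Paqr8, a membrane progestin receptor (r = 0.996), and the corepressor gene Bcorl1 (r = 0.994). The measure was Pearson's r of log2 CPM among 10379 genes, of which 223 had an r above 0.95. Wif1 stood at 8.14 and 8.12 CPM in PVDF@PDA, 6.77 and 8.03 with PCL@PDA, and 3.66 and 3.67 in Control. Those most like Cpt1a were the formin Fhod1 (r = 0.998), the chaperone Hsph1 (r = 0.996), the proton pump subunit Atp6v1a (r = 0.995) and the ubiquitin ligase Trim2 (r = 0.995), with 260 genes above 0.95. Fhod1 stood at 9.23 and 8.47 CPM in PVDF@PDA, 9.09 and 8.90 with PCL@PDA, and 4.98 and 4.73 in Control. These r values share the libraries and their 3 groups. A gene with a step up from Control to both materials and little spread within groups therefore has a high r.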

How the data were processed

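The authors' raw read counts per gene were used as deposited (whole numbers, 6 libraries, 16849 genes). The deposited FPKM values, scaled by gene length and library total, served to compare levels between genes: dividing count by FPKM gave 1 length per gene (relative tolerance 1e-04) in all 15690 genes with counts in 2 or more libraries. Per the submitters' processing notes, DESeq2 1.4.5 and the build mRatBN7.2 were named. No aligner, counter, annotation or strand setting is given in the sources used here.

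Groups follow the titles. For PCL@PDA the free-text description mentions PVDF@PDA instead, and the title was kept. The main test was edgeR 4.0.16 under R 4.3.3: filterByExpr (13018 genes kept, 3831 removed), TMM scaling, and a robust quasi-likelihood fit of 3 group means with 3 residual degrees of freedom. The fit drew the spread of each gene toward that of all genes, with a median of 50.3 prior degrees of freedom. The SEs, intervals and p-values thus rest mostly on spread shared across genes. Called means a 2-sided, Benjamini-Hochberg adjusted p under 0.05 across the 13018 genes. The level of 3 reads is 0.0861 to 0.0911 CPM, which covers counting error only. The members and lists were chosen with earlier results of these data known. Named list genes are, per list and comparison with Control, up to 4 called in each direction by smallest p, and between the materials the 1 with the smallest p. Some genes under these rules are not reported here. For likeness, tested genes averaging 1 or more in log2 CPM (prior count 2) entered, except symbols that are locus identifiers. Of 140 pathway list genes 134 were in the table.

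The labels number the libraries by batch, which pairs them. The titles A3, B3 and C3 go with the library names A2, B2 and C2, and the number in the title was kept. Deviations of same-numbered libraries from their group means correlated at r = -0.02 for the 2 materials, 0.04 for PVDF@PDA and Control, and 0.13 for PCL@PDA and Control. Alternatives were a replicate block, DESeq2 1.42.0, RLE size factors, scaling by library totals, no filter on low counts, a non-robust fit, only the 4 libraries of a contrast, and each library left out in turn. The test was tried on simulated data.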

Additional observations from a re-analysis of the deposited data

Results flagged for a closer look

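Esrra was singled out because both PVDF@PDA libraries were below both Control libraries while both PCL@PDA libraries were above them. Of all genes tested, 29.2% lay below Control in this way with PVDF@PDA and 28.3% above it with PCL@PDA. The share of genes with this joint pattern was not counted, so how unusual it is was not tested. The edgeR intervals of Esrra against Control spanned both signs, at -0.28 to 0.03 with PVDF@PDA and -0.05 to 0.26 with PCL@PDA. PVDF@PDA minus PCL@PDA came to -0.227 on the log2 scale, with an edgeR adjusted p of 0.401 over all genes. Without PCL@PDA replicate 1 this difference was -0.31 and passed, but with 1 library left in that group. PCL@PDA replicate 1, at 59.5 CPM, lay close to Control replicate 3, at 59.0 CPM.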

How the results depend on the processing

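As a description, since Ppargc1a and Cpt1a were chosen for lying above Control, leaving out 1 library at a time gave log2 differences from Control of 1.93 to 1.95 (PVDF@PDA) and 1.47 to 1.71 (PCL@PDA) for Ppargc1a, and 0.80 to 0.96 and 0.86 to 0.92 for Cpt1a. The replicate block changed no call of the 10 genes or the named list genes, and took the peroxisomal calls with PCL@PDA from 0 to 1, as did scaling by library totals (1). Between the materials 59 genes were called with the block in place of 8, 5 in DESeq2, 5 with library totals and 17 with no filter. With no filter, 2 peroxisomal genes were called with PVDF@PDA in place of 1, and with only the 4 libraries of the contrast 7 partner genes in place of 4. Scaling by library totals shifted the median of all genes by 0.04 against Control.

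Leaving out 1 library at a time, the counts of calls between the materials, with PVDF@PDA and with PCL@PDA against Control were 0 to 827, 1031 to 2869 and 1346 to 3173 over all genes. They were 0 to 1, 2 to 3 and 2 to 2 over the 10 genes, 0 to 1, 2 to 4 and 2 to 8 for beta-oxidation, 0 to 0, 0 to 2 and 0 to 1 for peroxisomal oxidation, 0 to 0, 2 to 5 and 4 to 6 for PPAR targets, 0 to 5, 1 to 8 and 4 to 15 for partners and 0 to 4, 2 to 12 and 5 to 12 for the TCA cycle list. Scaling by library totals turned the sign of uncalled PCL@PDA against Control values of Ppard (0.013), Cpt2 (0.016) and Acadvl (0.041). Leaving out 1 library turned uncalled values between the materials for Ppara (-0.089 to 0.18), Ppard (-0.24 to 0.050), Cpt1a (-0.095 to 0.069) and Hadha (-0.047 to 0.093), and with PCL@PDA against Control for Ppargc1b (-0.39 to 2.79), Ppara (-0.11 to 0.15), Ppard (-0.19 to 0.11), Cpt2 (-0.088 to 0.033) and Acadvl (-0.058 to 0.047). The cause was not tested. In Control replicate 1, Ppargc1b was under the level of 3 reads. A group left with 1 library is assumed to vary like the others.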

Other observations

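Plin1, the lipid droplet coat protein of fat cells, had 21 and 18 reads with PVDF@PDA, 1 and 3 with PCL@PDA and 2 and 5 in Control, and was singled out after its values were seen. The summed reads, scaled for depth, gave a ratio of 9.99 (3.60 to 38.5) for PVDF@PDA over PCL@PDA and 5.66 (2.50 to 15.0) for PVDF@PDA over Control, with 95% intervals that cover counting error only. With the spread between libraries neither difference passed in edgeR (adjusted p = 0.398 and 0.0743). Adipoq, Lep and Cidec, which mark fat cells too, had 0 to 5 reads per library.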
